A study of Mus musculus with 8 samples.

Results

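10 genes that set the identity of dendritic cells (DCs) were followed on 8 arrays of splenic DCs. They were the growth factor receptor gene *Flt3* and the transcription regulator genes *Zbtb46*, *Id2*, *Batf3*, *Bcl6*, *Runx3*, *Klf4*, *Tcf4*, *Spib* and *Ikzf1*. Members were chosen by symbol in the array annotation, and a gene with several probe sets was to be represented by the one with the highest mean over the 8 arrays. Each member had 1 probe set, so 10 of 41345 probe sets were followed, or 10 of the 22180 genes that have a probe set with a single symbol.

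All DCs came from the spleen of mice aged 8 weeks on the C57BL/6 background. The study sorted splenic DCs as CD11c+MHCII+ cells for its co-cultures, and its methods do not give the gate used for the arrays. WT DCs were from Lkb1f/f mice, which carry the floxed allele without Cre (3 arrays), and Lkb1-deficient DCs were from Cd11cCreLkb1f/f mice (3 arrays). Lkb1 is a kinase, encoded by *Stk11*, that links cell metabolism to growth. Cre under the Cd11c promoter also acts in other cells that express CD11c, macrophages among them. A further pair of single arrays held DCs of wild type C57BL/6 mice, untreated (control) or given LPS, the bacterial endotoxin, overnight. A figure legend of the study gives Lkb1f/f mice for the LPS array, and the LPS dose for these arrays is not given in the sources used here.

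DCs arise in the bone marrow from progenitors that carry the receptor Flt3 and depend on its ligand. Conventional DCs (cDCs) express *Zbtb46* and divide into cDC1, the CD8+ cells of the mouse spleen that need *Batf3* and *Id2*, and cDC2, the CD11b+ cells in which *Runx3*, *Klf4* and other factors act. Plasmacytoid DCs (pDCs), which make type I interferon, depend on *Tcf4*, an E protein, and use *Spib*. Id2 binds E proteins and keeps them from DNA, so Id2 and Tcf4 stand on opposite sides of the choice between cDC and pDC. In bulk RNA, fewer cells of a type and less RNA per cell cannot be told apart.

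*Bcl6*, *Spib*, *Ikzf1* and *Id2* had the largest differences among the members, and these lay between the LPS and control arrays. Compared with the control array, the LPS array was 2.08-fold higher in *Spib* and 1.82-fold higher in *Id2*, and it was lower in *Bcl6* (2.22-fold), *Ikzf1* (2.06-fold) and *Klf4* (1.54-fold). Lkb1-deficient DCs differed from WT DCs in the same 5 genes in the same direction, by 1.20-fold to 1.49-fold on average over the replicate numbers. When single arrays were left out, only *Spib* of these kept its direction by group mean throughout. A direction shared by LPS and all 3 replicate numbers was found in 6 of the 10 members. It was found in 11.5% of all probe sets and in 20.0% of those with a mean at or above the median. None of the 10 members passed limma's test. That test, a linear model whose error is moderated across probe sets, was called at an adjusted p under 0.05 over all probe sets. It was run on the groups as they stand, where the error came out equal for all probe sets. It was run again with the replicate number as a block, which compares arrays of the same number (a pair). *Flt3* and *Zbtb46*, which mark the DC lineage, differed by 1.07-fold between the LPS and control arrays.

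Promoter sequence is shown for 4 of these genes, those higher on the LPS array (*Spib* and *Id2*) and a pair of those lower on it (*Klf4* and *Bcl6*). RefSeq windows of the 250 bases before an annotated start (GRCm38.p6, all 4 on the minus strand, written 5′ to 3′ along the gene) were searched on both strands for the letters of binding motifs. Capitals mark CANNTG, the E-box that E proteins such as *Tcf4* bind, in *Spib*, *Id2* and *Klf4*.
Spib (chr7:44532072-44532321): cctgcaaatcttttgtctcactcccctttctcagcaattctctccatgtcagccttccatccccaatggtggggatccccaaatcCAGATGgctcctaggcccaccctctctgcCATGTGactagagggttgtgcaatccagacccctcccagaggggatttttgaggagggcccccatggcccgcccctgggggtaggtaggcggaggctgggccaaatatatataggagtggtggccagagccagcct
Id2 (chr12:25096093-25096342): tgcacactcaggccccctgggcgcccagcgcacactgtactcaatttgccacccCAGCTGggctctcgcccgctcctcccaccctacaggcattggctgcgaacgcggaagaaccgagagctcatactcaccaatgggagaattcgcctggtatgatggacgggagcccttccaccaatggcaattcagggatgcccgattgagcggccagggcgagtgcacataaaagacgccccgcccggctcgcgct
Klf4 (chr4:55532476-55532725): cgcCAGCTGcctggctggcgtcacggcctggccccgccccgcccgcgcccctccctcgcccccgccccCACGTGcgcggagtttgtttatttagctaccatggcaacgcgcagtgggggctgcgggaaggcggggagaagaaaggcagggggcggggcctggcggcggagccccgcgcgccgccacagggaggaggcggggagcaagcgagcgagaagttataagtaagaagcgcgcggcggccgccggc
In the window of the inner of 2 annotated starts of *Bcl6*, capitals mark TTCCNNGAA, the core that the Bcl6 protein itself binds.
Bcl6 (chr16:23981284-23981533): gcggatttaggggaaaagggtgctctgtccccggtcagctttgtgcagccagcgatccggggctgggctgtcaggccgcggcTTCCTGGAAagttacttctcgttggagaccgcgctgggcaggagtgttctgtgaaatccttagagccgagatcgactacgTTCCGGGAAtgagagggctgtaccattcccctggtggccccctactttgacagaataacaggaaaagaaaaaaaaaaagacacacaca
The E-box occurred 2 times in the windows of *Spib* and *Klf4* and 1 time in that of *Id2*, and 8 of the 12 windows of 9 members held at least 1 (*Tcf4* was not searched). That share is near the background, as 66.22% of all 32851 windows hold at least 1 and 31.8% hold at least 2. The TTCCNNGAA core began at positions −168 and −88 from the inner start of *Bcl6*, and 0.125% of all windows hold at least 2 such matches (4.058% at least 1). The window and motif shown for *Bcl6* were picked out of all those searched, so this share is not a test of rarity. The window of its outer start had an E-box at −60 and no TTCCNNGAA. *Batf3* had a single match. Of the other letters searched, TGTGGT (RUNX, 14.05% of all windows) and TGGGAA (Ikaros, 21.59%) were found only in the window of *Runx3* among the members, and TGANTCA (AP-1 and BATF, 6.749%) only in that of *Zbtb46*. GAGGAAGT (PU.1 and Spi-B, 2.441%), CCACACCC (KLF, 3.196%) and the NF-κB consensus (1.208%) had no match in these windows. TTCCNNGAA, TGGGAA and the NF-κB consensus can share bases in places, and a match describes letters only, not binding.

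The arrays differed in overall brightness. The median log2 value was 4.64, 4.09 and 3.40 on WT arrays 1, 2 and 3, 4.59, 4.07 and 3.35 on Lkb1-deficient arrays 1, 2 and 3, and 4.14 on the control and LPS arrays. The replicate 3 arrays were also high in neutrophil markers, whose summed linear signal was 3845 and 3396 there against 161 to 575 on the other 6 arrays. DC markers were bright on all arrays (the MHC class II gene *H2-Ab1* lay between 11.26 and 12.90 on the log2 scale), and the B cell markers *Cd79a* and *Ms4a1* were also measured, at 5.07 to 9.90. In the lists of B cell, T cell, NK cell, neutrophil, macrophage, erythroid and plasma cell markers, no gene passed limma's test between Lkb1-deficient and WT DCs, with or without the block. Of 11 macrophage and monocyte markers, 7 were at least 1.5-fold lower on the LPS array than on the control array and 1 higher (3.95% of all probe sets were this much lower and 3.63% higher). Neutrophil markers went the other way, with 5 of 10 higher and none lower, and of 9 NK cell markers 3 were higher and 2 lower. *Stk11* itself had a log2 value of 6.51 ± 0.48 in WT DCs and 6.21 ± 0.59 in Lkb1-deficient DCs (SD, n = 3 arrays each). That difference was not called by limma (adjusted p = 1). Whether the probes fall in the deleted exons is not stated, so it does not check the genotype. Of the probe sets measured on the control and LPS arrays, 54.2% had equal values to the last digit there, *Stk11* among them.

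All 10 members lay among the brighter probe sets (mean at or above the median of all probe-set means), between percentile 79.3 and 99.8 of their own array. Brightness of different probe sets does not rank transcripts, so each gene is compared only with itself. Both replicate 1 arrays were above the mean of their genotype in all 10 members and both replicate 3 arrays below it. The median deviation of the 10 members was 0.77 and 0.71 for replicate 1 (WT first), 0.29 and 0.21 for replicate 2, and −1.16 and −0.97 for replicate 3. The spread among WT arrays was shared between members, and Lkb1-deficient and WT arrays are set against each other within a replicate number as well as by group. The control array lay within the WT range for 8 members and outside it for *Tcf4* (above) and *Spib* (below).

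**Figure D1:**
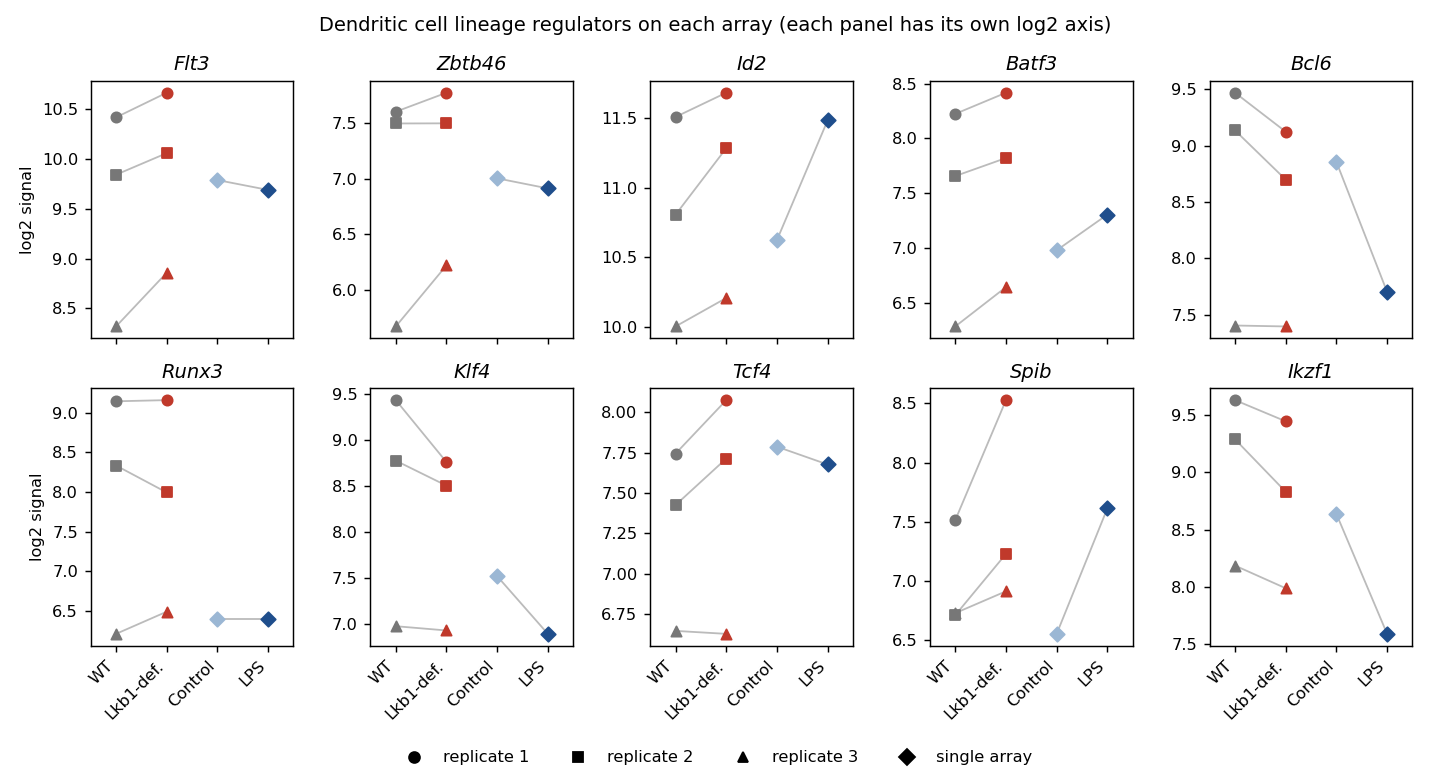
Log2 signal of each of the 10 regulators on WT, Lkb1-deficient (Lkb1-def.), control and LPS arrays, with 1 point per array and lines joining arrays of the same replicate number, or control and LPS. Each panel has its own axis. Replicate 3 (triangles) is the lowest of its genotype in every panel, except for WT in *Spib*, where replicates 2 and 3 lie together at 6.71 and 6.73, and the control to LPS step is steepest in *Id2*, *Spib*, *Bcl6* and *Ikzf1*.

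*Flt3*, the receptor through which Flt3 ligand expands DC progenitors, had log2 values of 10.41, 9.84 and 8.32 on WT arrays 1 to 3 and of 10.66, 10.06 and 8.86 on Lkb1-deficient arrays 1 to 3. The Lkb1-deficient array was the higher of each pair, while the groups overlapped widely. The differences within replicate numbers were 0.25, 0.22 and 0.54, with a mean of 0.33 (1.26-fold). With the replicate number as a block, the 95% interval was 0.04 to 0.63, and *Flt3* did not pass after adjustment over all probe sets (adjusted p = 0.388). On the control and LPS arrays *Flt3* lay at 9.79 and 9.69.

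*Zbtb46*, a zinc finger factor of cDCs and their committed precursors, had log2 values of 7.61, 7.50 and 5.67 in WT DCs and 7.78, 7.50 and 6.22 in Lkb1-deficient DCs. Its difference was spread unevenly over the pairs, at 0.17, 0.00 and 0.55 for replicate numbers 1, 2 and 3. The mean was 0.24, the interval with the block −0.11 to 0.60 and its adjusted p 0.590. The control array lay at 7.01 and the LPS array at 6.91.

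*Id2*, which holds E proteins off DNA and is needed for cDC1, was measured at log2 values of 11.51, 10.81 and 10.004 in WT DCs and 11.68, 11.28 and 10.21 in Lkb1-deficient DCs. The Lkb1-deficient array was higher in each pair, by 0.17, 0.48 and 0.20 (mean 0.29, 95% interval with the block −0.003 to 0.57, adjusted p = 0.440). The step from the control array (10.62) to the LPS array (11.48) was larger, 0.86 on the log2 scale or 1.82-fold. Both values lay within the range of the WT arrays.

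*Batf3*, the AP-1 factor on which cDC1 depend, had log2 values of 8.22, 7.66 and 6.28 in WT DCs and 8.42, 7.82 and 6.64 in Lkb1-deficient DCs. Each pair differed by a small amount in the same direction, 0.19, 0.16 and 0.36 (mean 0.24, 95% interval with the block −0.02 to 0.50, adjusted p = 0.471). The LPS array (7.30) was 1.25-fold above the control array (6.98). This small difference stood beside large ones in the markers of cDC1. Of these, 9 of 11 measured were at least 1.5-fold lower on the LPS array, as were 3.95% of all probe sets. Among the 9 were *Xcr1*, the chemokine receptor that defines cDC1, at −3.92 on the log2 scale, *Wdfy4* at −3.496 and *Naaa* at −2.80. The endocytic receptor gene *Ly75* was the exception with a difference of 1.97, and the remaining marker, *Cxcr3*, had one of −0.46. Between Lkb1-deficient and WT DCs the median difference of the 11 markers was −0.13, and none passed limma's test with or without the block. In all 3 pairs 3 of them were higher and 6 lower (13.3% and 16.9% of all probe sets). *Ly75* was among the higher ones, by 1.22, 0.74 and 1.05, and its groups did not overlap (0.573% of all probe sets).

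*Bcl6*, a transcriptional repressor best known from germinal centre B cells and also needed for normal cDC numbers in mice, had log2 values of 9.47, 9.14 and 7.41 in WT DCs. In Lkb1-deficient DCs it had values of 9.12, 8.70 and 7.40. The Lkb1-deficient array was lower in pairs 1 and 2, with differences of −0.35 and −0.44, and in pair 3 the difference was −0.008. The mean difference was −0.26 (95% interval with the block −0.58 to 0.06, adjusted p = 0.515). On the LPS array *Bcl6* lay at 7.70, against 8.86 on the control array, a difference of −1.15. No other member differed as much between these arrays.

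*Runx3*, a factor of splenic CD11b+ ESAM-high cDC2 in mice, had log2 values of 9.14, 8.33 and 6.22 in WT DCs and 9.16, 7.99 and 6.49 in Lkb1-deficient DCs. It had the widest WT range of the 10 members, 2.93, and no common direction over the pairs (0.01, −0.34 and 0.28). Its mean difference was −0.02, with an interval of −0.39 to 0.36 in the block's fit (adjusted p = 0.984). The control and LPS arrays both read 6.40, equal to the last digit.

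*Klf4*, a zinc finger factor that some cDC2 need, had log2 values of 9.44, 8.78 and 6.98 in WT DCs and 8.76, 8.51 and 6.93 in Lkb1-deficient DCs. The Lkb1-deficient array was the lower of each pair, by a difference of −0.67 in pair 1 and of −0.27 and −0.05 in pairs 2 and 3 (mean −0.33, 95% interval with the block −0.71 to 0.05, adjusted p = 0.492). The LPS array (6.90) differed from the control array (7.52) by −0.63 and was the lowest of the 8 arrays. Markers of CD11b+ ESAM-high cDC2 had a median difference of −0.38 between Lkb1-deficient and WT DCs. In all 3 pairs 7 of 12 were lower and 3 of 12 higher (16.9% and 13.3% of all probe sets). None of the 12 passed limma's test. The CD4 gene *Cd4* had the largest mean difference of the 12, with −1.33, −1.54 and −0.58 by pair (adjusted p = 0.164 with the block). Of the 3 brightest, *Tbc1d8* was higher in each pair (0.33, 0.38 and 0.70), and *Sirpa* and *Adam23* were lower. On the LPS array, 6 of the 12 were at least 1.5-fold lower and 1 higher (3.95% and 3.63% of all probe sets). Of 8 markers of ESAM-low cDC2, 4 were lower and none higher. The part of these cells in the values of *Klf4* and *Runx3* was not tested.

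*Tcf4*, the E protein on which pDC identity depends, had log2 values of 7.74, 7.43 and 6.65 in WT DCs and 8.07, 7.71 and 6.63 in Lkb1-deficient DCs. It was higher by 0.33 and 0.29 in pairs 1 and 2 and differed by −0.02 in pair 3, with a mean of 0.20 (95% interval with the block −0.10 to 0.50, adjusted p = 0.597). On the control array it lay at 7.79 and on the LPS array at 7.68.

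*Spib*, an Ets factor shared by pDCs and B cells, had log2 values of 7.51, 6.71 and 6.73 in WT DCs and 8.53, 7.23 and 6.91 in Lkb1-deficient DCs. It had the largest mean difference of the 10 members, 0.57 (1.49-fold). The Lkb1-deficient array was higher in each pair, by 1.01, 0.52 and 0.18, with an SD of 0.42, and with any 1 array or pair left out the mean stayed above 0 (0.09 to 0.89). The block gave an interval of 0.12 to 1.02 and an adjusted p of 0.345. The LPS array (7.61) lay 1.06 above the control array (6.56), a 2.08-fold difference, and only Lkb1-deficient array 1 was higher.

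Other genes of pDCs and B cells did not all go with *Spib*. The summed linear signal of 10 B cell markers on the Lkb1-deficient array was 1.30, 0.667 and 0.654 times that of the WT array in pairs 1, 2 and 3, and on the LPS array it was 0.518 times that of the control array. For 19 pDC markers the ratios were 0.918, 1.05 and 1.01 by pair and 1.62 for LPS, of which the last rests on *Irf7*: without it, a choice made after seeing the data, the LPS ratio was 1.05. Between Lkb1-deficient and WT DCs 9 of these 19 were higher and 2 lower in all 3 pairs (13.3% and 16.9% of all probe sets). *Cox6a2*, a muscle-type cytochrome oxidase subunit also found in pDCs, passed limma's test with the block (differences of 1.83, 1.86 and 1.38, adjusted p = 0.0334). Its adjusted p was 1 when the block was left out. On the LPS array 3 pDC markers were at least 1.5-fold higher and 4 lower (3.63% and 3.95% of all probe sets). *Irf7*, an interferon-induced factor, lay at 2.44 and *Siglech*, the pDC surface lectin, at −1.64 on the log2 scale. The part of pDCs and B cells in the values of *Spib*, *Tcf4*, *Bcl6* and *Ikzf1* was not tested.

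*Ikzf1*, which encodes the haematopoietic factor Ikaros, had log2 values of 9.63, 9.29 and 8.19 in WT DCs and 9.44, 8.83 and 7.99 in Lkb1-deficient DCs. The Lkb1-deficient array was lower in each pair, by differences of −0.18, −0.46 and −0.20 (mean −0.28, 95% interval with the block −0.56 to 0.00, adjusted p = 0.440). Its LPS value, 7.59, was the lowest of the 8 arrays and differed from the control array (8.64) by −1.04. By percentile it lay apart from the other arrays as well, at 91.76 on the LPS array against 95.03 to 96.84 on the other 7.

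Between Lkb1-deficient and WT DCs, 0 of the 10 members passed limma's test at an adjusted p under 0.05, beside 0.00967% of all probe sets. No member had an unadjusted p under 0.05 in this fit (0.36% of all probe sets had), in which the standard error was 0.63 for every probe set, above the mean difference of each member. Even *Fscn1*, with a mean difference of 2.03, did not pass in it. This fit could therefore not call differences as small as those of the members, and its result does not show that they were unchanged. With the replicate number as a block, standard errors of the members were 0.10 to 0.18, 0.23% of all probe sets passed and again no member did. *Flt3* and *Spib* had an unadjusted p under 0.05 there (0.0327 and 0.0224), both higher in Lkb1-deficient DCs, as had 5.21% of all probe sets in that direction. No member's groups were separated, which was the case for 0.573% of all probe sets. With 3 arrays in each group, the smallest two-sided p of an exact permutation test is 0.1, and no such test was run. The labels do not say that each array came from separate mice, so p-values measure only the spread between these arrays. Without the block that spread was pooled over all probe sets and was not that of each gene.

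By direction, 5 members were higher in all 3 pairs (*Flt3*, *Zbtb46*, *Id2*, *Batf3* and *Spib*) and 3 lower (*Bcl6*, *Klf4* and *Ikzf1*), while *Runx3* and *Tcf4* were mixed. Any difference other than 0 was counted, down to 0.001 for *Zbtb46* in pair 2 and −0.008 for *Bcl6* in pair 3, and *Tcf4* was mixed through −0.02 in pair 3. Of all probe sets, 13.3% were higher and 16.9% lower in all 3 pairs, and of the brighter probe sets, to which the members belong, 19.3% and 20.6%. The median size of the members' mean differences was 0.27, against 0.12 over all probe sets and 0.14 over the brighter probe sets. In pairs 1 and 2 alone, a choice made after seeing that replicate 3 was dim and bright in neutrophil markers, 6 members were higher and 3 lower (23.1% and 29.0% of all probe sets).

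Directions by group mean hold only while the replicate numbers are balanced. Without WT replicate 1 or Lkb1-deficient replicate 3, all 10 members were higher in Lkb1-deficient DCs, whereas leaving out WT replicate 3 or Lkb1-deficient replicate 1 made 9 of 10 lower, *Spib* being the exception. The median of all probe sets then moved from −0.02 to 0.19, 0.31, −0.35 and −0.23 in that order. With the block, leaving out a whole pair turned the direction of *Runx3* alone, to 0.15 without replicate 2.

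**Figure D2:**
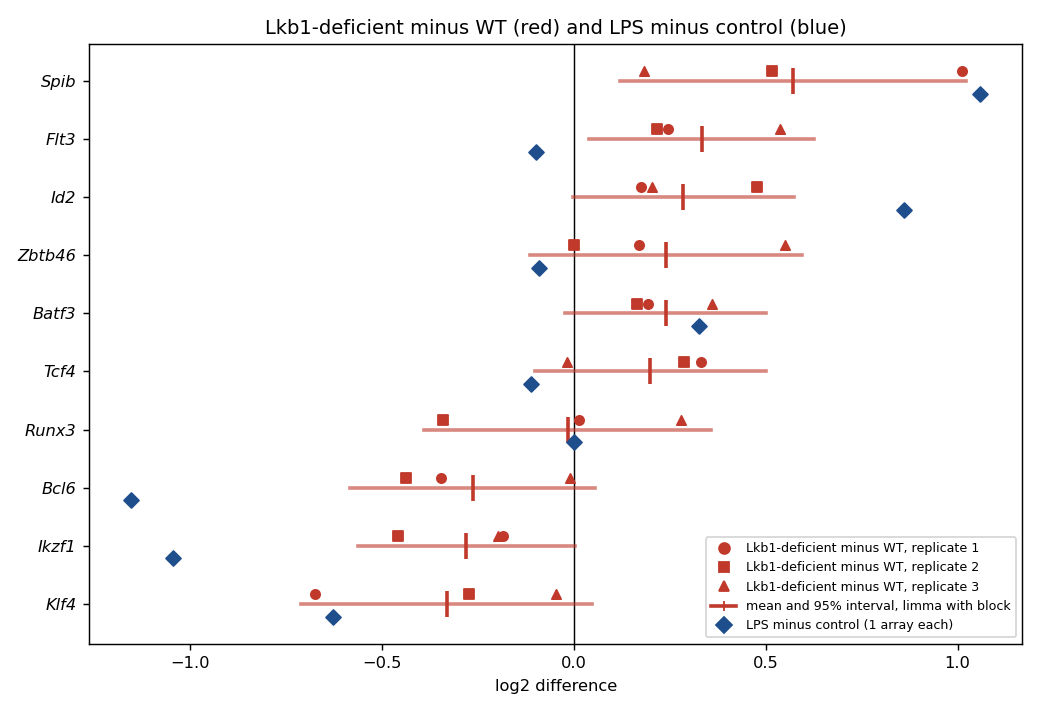
Log2 difference of each regulator, Lkb1-deficient minus WT for each replicate number (red circles, squares and triangles), their mean with the 95% interval from limma with the replicate block (red tick and bar), and LPS minus control from 1 array each (blue diamonds). The red bars of *Spib* and *Flt3* lie wholly above 0, and the blue diamonds of *Bcl6*, *Ikzf1*, *Id2* and *Spib* lie farther from 0 than the red means of those genes.

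On the LPS array, 2 members were at least 1.5-fold higher than on the control array (*Id2* and *Spib*) and 3 were lower (*Bcl6*, *Klf4* and *Ikzf1*). Of all probe sets on both arrays, 3.63% were higher and 3.95% lower by this much, and of the brighter probe sets 6.45% and 7.72%. The median size of the members' differences was 0.48, against 0.08 in the brighter probe sets. Equal values on both arrays, in 54.2% of all and 38.3% of the brighter probe sets, lower these shares and the median of 0.08. Among the members only *Runx3* had equal values. At 2-fold, 3 members were left, *Bcl6*, *Spib* and *Ikzf1*. These counts compare 2 arrays and have no replicate check. By percentile within the array, the LPS array was the lowest of the 8 in *Bcl6*, *Klf4* and *Ikzf1* and the highest in *Id2* and *Spib*, but by narrow margins in 3 of them. The nearest other array was at 92.5 against 92.4 for *Bcl6*, at 91.88 against 91.89 for *Spib* and at 99.74 against 99.79 for *Id2*, which by value ranked 6 of 8 from the lowest on the LPS array.

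*Flt3* and *Zbtb46* differed little between the control and LPS arrays beside other genes on a list of shared DC markers, not all of which are common to every DC. On the LPS array 6 of 9 shared DC markers other than these were at least 1.5-fold lower, as were 3.95% of all probe sets. The differences were −2.73 for *Itgax*, which encodes CD11c, −2.44 for the MHC class II transactivator gene *Ciita* and −1.58 for *H2-Ab1*. The migration genes *Ccr7* and *Fscn1* had differences of 1.44 and 2.02. The differences of *Flt3* and *Zbtb46* were −0.10 and −0.09. *Fscn1*, which encodes the actin-bundling protein fascin, was also the gene of this list that passed limma's test with the block in Lkb1-deficient DCs (2.05, 1.65 and 2.38 by pair, adjusted p = 0.0334), though not without it (adjusted p = 1). With any 1 of the 3 pairs left out, no probe set passed in the block's fit, so neither *Fscn1* nor *Cox6a2* did.

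**Figure D3:**
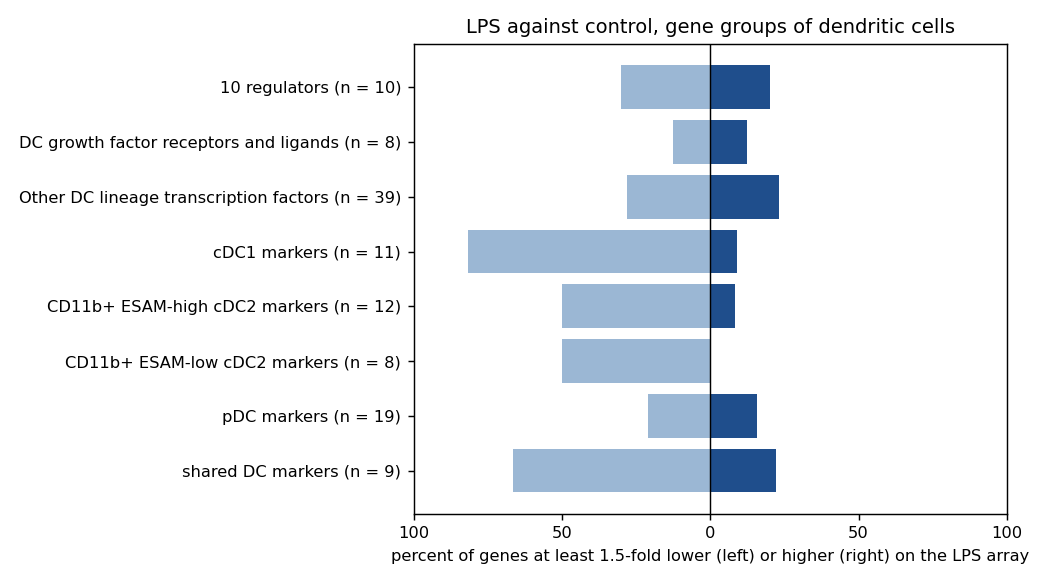
Percent of genes at least 1.5-fold lower (left bars) or higher (right bars) on the LPS array than on the control array, for the 10 regulators and 7 lists of DC genes without them, with the number measured in brackets. The cDC1 list has 9 of 11 genes on the left, whereas the regulators divide into 3 lower and 2 higher of 10.

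The LPS and Lkb1 comparisons, which share no array, had differences of the same sign, whatever their size, in 6 members whose 3 pairs also shared a sign. *Id2*, *Batf3* and *Spib* were higher in both, and *Bcl6*, *Klf4* and *Ikzf1* lower in both. This held for 11.5% of all probe sets on the 8 arrays and for 20.0% of the brighter probe sets. Probe sets equal on the control and LPS arrays (54.2% of all, 38.3% of the brighter) cannot share a direction, which lowers these shares. The LPS difference minus the Lkb1 difference was tested by limma on the 8 arrays, which assumes that the single arrays vary like the others. No member passed (adjusted p = 1 for all 10), nor with the block, where *Bcl6*, *Ikzf1* and *Id2* had the lowest p. For *Bcl6* the LPS difference minus the Lkb1 difference was −0.89 (95% interval with the block −1.46 to −0.32, adjusted p = 0.246). The corresponding difference was −0.76 for *Ikzf1* (−1.28 to −0.25, adjusted p = 0.278) and 0.57 for *Id2* (0.05 to 1.10, adjusted p = 0.556). These 3 were the members with an unadjusted p under 0.05 in the block's fit, as had 7.69% of all probe sets. Of all probe sets, 0.00297% passed without the block (0.279% unadjusted) and 0.981% with it.

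Other regulators of DC development were read from lists of 39 measured transcription factor genes and 8 receptor genes. None of these genes passed limma's test with or without the block. Among the transcription factors 8 were higher and 10 lower in all 3 pairs (median difference 0.02), and among the receptors 4 were higher and none lower (median 0.24). Of all probe sets, 13.3% were higher and 16.9% lower in all 3 pairs (19.3% and 20.6% of the brighter probe sets). The differences that led by size were those of the cytokine receptor genes *Il7r* (1.32, 1.12 and 0.72 by pair, adjusted p = 0.107 with the block) and *Csf2rb2* (0.60, 0.64 and 0.76, adjusted p = 0.122) and of *Klf2*, a relative of *Klf4* that keeps lymphocytes quiescent (−1.40, −0.94 and −0.46, adjusted p = 0.212). *Ikzf4*, of the Ikaros family, and *Stat3*, which acts below Flt3, had mean differences of 0.64 and 0.52, and *Bcl11a*, a factor that pDCs need, one of −0.61.

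On the LPS array 9 of the 39 transcription factor genes were at least 1.5-fold higher and 11 lower, and of the 8 receptor genes 1 was higher and 1 lower. Of all probe sets, 3.63% were this much higher and 3.95% lower (6.45% and 7.72% of the brighter probe sets). *Il7r* had a log2 difference of 3.84 and *Csf1r*, the receptor of the macrophage growth factor, one of −1.53. *Irf8*, a factor that cDC1 and pDCs both need, had a difference of −1.55, whereas *Batf3*, its partner in cDC1, had one of 0.33. *Nfil3*, which acts before *Id2* in the making of cDC1, had a difference of 1.79, the *Batf3* relative *Batf* one of 1.29 and *Bcl11a* one of −2.63. Of the genes named here with 3 pairs of 1 sign, *Klf2* (−0.72), *Ikzf4* (0.91), *Il7r*, *Stat3* (1.13), *Bcl11a* and *Nfil3* had the same direction on the LPS array as in Lkb1-deficient DCs. *Csf2rb2* (−0.29 with LPS), *Irf8* and *Batf* had opposite directions, with mean differences of 0.67, 0.23 and −0.30 in Lkb1-deficient DCs.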

How the data were processed

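Affymetrix Mouse Gene 2.0 ST arrays measured the RNA of splenic DCs (3 WT, 3 Lkb1-deficient, 1 control and 1 LPS). Values deposited by the authors are log2 signals, 1 for each probe set on each array, between 0.15 and 13.39. The methods name Agilent GeneSpring GS 11, and the submitters' processing notes name MAS5 without a version or role. How probes were summarised and arrays normalized is not given in the sources used here. The number of arrays limits the precision. Image files were not used here.

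Values were used as deposited, with no filter. A single symbol was given to 23521 of 41345 probe sets by the array annotation, several to 1820 and none to 16004. On the control and LPS arrays 33649 probe sets had values. The groups were compared by limma 3.58.1 in R 4.3.3 (unpaired, after the t-test that the methods name for comparing groups, not for the arrays in particular), adjusted over all probe sets by Benjamini-Hochberg, and LPS with control by the difference only. The test was checked on simulated data. The changes planted there were larger than the mean difference of any member between Lkb1-deficient and WT DCs, so the check does not cover differences of that size. After removal of genotype means, same-numbered WT and Lkb1-deficient arrays correlated at 0.85, 0.80 and 0.74 and others at −0.61 to −0.13, so the replicate number was also fitted as a block. This pairing comes from the values alone, not from the labels. The members, the 14 gene lists and the motifs were chosen with earlier results of these data known. All 10 members are named, and from the lists of other regulators the 6 with the largest difference for each comparison (for Lkb1 deletion, among those with 3 pairs of 1 sign). From the marker lists some of the brightest genes are named. Other markers were picked because they bear on a member or after seeing their differences. *Flt3l*, *Zeb2*, *Runx2*, *Bcor* and *Clec9a* were not analysed here. Alternatives were array centring, quantile normalization, 16 added to linear values, the brighter probe sets only, a variance trend, the methods' t-test, all 8 arrays in 1 fit and leaving out arrays or pairs.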

Additional observations from a re-analysis of the deposited data

How the results depend on the processing

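For Lkb1 deletion, 0 of the 10 members passed limma's test under each alternative run, the block and the methods' t-test included. The 4 probe sets that passed over the whole array became 95 with the replicate block, 0 with arrays centred on their medians, 2 with quantile normalization, 0 with 16 added and 0 by the methods' t-test (149 had an unadjusted p under 0.05 in limma, 111 by the methods' t-test). With the block, alternatives added after seeing the data gave 12 with 16 added, 91 after quantile normalization and 217 with a variance trend. The members with an unadjusted p under 0.05 in limma were 2 with the block and 5, 3 and 7 in these alternatives, in that order. Over all 41345 probe sets, 4724 had such a p with the block and 5415, 4710 and 5049 in the alternatives. Leaving out 1 array without the block gave 0 to 10, with 0 without KO replicate 2, 2 without KO replicate 1 and 10 without KO replicate 3. With the block, the 95 became 0 when any 1 of the 3 pairs was left out (3182 to 3694 then had an unadjusted p under 0.05). The block changed no call of a member. The direction of *Runx3* turned when arrays were centred (0.023) and, in the block's fit, without replicate 2 (0.15).

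Leaving out arrays moved the log2 difference from −0.27 to 0.83 for *Flt3*, −0.39 to 0.71 for *Zbtb46*, −0.10 to 0.71 for *Id2*, −0.31 to 0.73 for *Batf3*, −0.90 to 0.24 for *Bcl6* and −0.86 to 0.68 for *Runx3*. It moved from −1.04 to 0.24 for *Klf4*, −0.11 to 0.62 for *Tcf4*, 0.09 to 0.89 for *Spib* and −0.70 to 0.10 for *Ikzf1*. The brightness of the array left out moved with these values. The 5 members past 1.5-fold on the LPS array became 3 at 2-fold, and 4 at 1.5-fold with 16 added. For array data, depth is not known, and no member lay among dim probe sets.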
